A study of Homo sapiens with 22 samples.

Results

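The data described here are 62388 regions enriched for histone H3 dimethylated at lysine 4 (H3K4me2) in DLD-1, an established cell line from a human colorectal adenocarcinoma. They are all rows on chromosomes 1 to 22 and X of the authors' H3K4me2 peak list, which has 62504 rows; the 116 other rows were left out. The series holds 94835 deposited regions in all, which also include MTBP peaks and zones of replication initiation. The list was made by CUT&RUN, in which an antibody guides a nuclease to cut out and release the DNA around its target. An H3K4me2 antibody was used on 2 libraries and control IgG on 2 libraries. The labels give all 4 libraries the same genotype, MTBP-mAID/MTBP-WT-FLAG, so no group here is unedited: one kind of MTBP copy carries the mAID degron tag and the other is full-length with a FLAG tag. The labels name no treatment or time for these 4 libraries. MTBP is a replication initiation protein, and the study as a whole compared its binding with sites of early replication. The H3K4me2 list gives 1 value per peak and none per library, so no comparison between replicates could be made. Library depth is unknown from it, and whether the replicates were pooled before peak calling is not given in the sources used here. All folds are the authors' fold enrichments and serve only to describe and rank peaks within the list.

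H3K4me2 is placed by the KMT2 and SETD1 methyltransferase complexes and removed by LSD1 (KDM1A) and the KDM5 demethylases. It is found on nucleosomes at promoters in use or poised for use, and at enhancers, where monomethylation of the same residue is also common. Most human promoters lie in CpG islands, stretches rich in the unmethylated CG dinucleotide, and proteins with CXXC domains recruit methyltransferase complexes to such DNA.

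Of 19974 protein-coding genes in the RefSeq table, 12738 had any part of a peak within 1 kb of a start site, so the share of all coding genes with the mark was 63.8%. For the 4162 coding genes with no listed start, here and in all gene lists below, either end of the gene stood in for the start. The sequences below are the 200 bases before the RefSeq start site of 4 genes, from RefSeq's GRCh38.p14 promoter table. They were chosen to show a CpG-rich promoter with one of the highest folds and a CpG-poor promoter under one of the widest peaks. A promoter of each kind with no peak was added. The kinds follow the ratio of observed to expected CG. The sequences are written 5′ to 3′ in the direction of transcription, and capitals mark each CG dinucleotide.
RASGEF1B (chr4:81471908-81472107, minus strand): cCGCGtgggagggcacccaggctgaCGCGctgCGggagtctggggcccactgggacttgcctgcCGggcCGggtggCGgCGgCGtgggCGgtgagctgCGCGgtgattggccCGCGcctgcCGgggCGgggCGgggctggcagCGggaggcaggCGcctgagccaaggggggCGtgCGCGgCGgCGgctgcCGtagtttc
RNF43 (chr17:58417535-58417734, minus strand): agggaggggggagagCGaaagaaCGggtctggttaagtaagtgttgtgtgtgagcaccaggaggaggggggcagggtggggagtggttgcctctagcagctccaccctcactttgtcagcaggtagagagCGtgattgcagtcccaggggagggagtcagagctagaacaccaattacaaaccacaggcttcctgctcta
GPA33 (chr1:167090378-167090577, minus strand): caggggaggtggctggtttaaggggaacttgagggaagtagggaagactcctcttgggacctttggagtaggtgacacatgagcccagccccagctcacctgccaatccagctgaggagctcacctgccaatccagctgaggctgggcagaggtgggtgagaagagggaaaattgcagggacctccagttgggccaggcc
HOXA2 (chr7:27102684-27102883, minus strand): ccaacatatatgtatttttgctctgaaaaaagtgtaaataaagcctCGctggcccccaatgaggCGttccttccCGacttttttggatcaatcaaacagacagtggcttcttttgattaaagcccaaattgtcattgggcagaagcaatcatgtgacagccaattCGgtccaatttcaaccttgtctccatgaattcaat
The RASGEF1B window holds 26 CG dinucleotides, and its start site lay in a peak of 3391 bp with a fold of 90.4. RASGEF1B encodes an exchange factor for small GTPases of the Ras family. The RNF43 window holds 3, yet its start site lay under a peak of 33864 bp with a fold of only 9.07. RNF43 is a ubiquitin ligase that removes Wnt receptors from the cell surface, and is itself a Wnt target. The GPA33 window, upstream of a gene for an intestinal cell surface glycoprotein, holds 0, and the nearest summit lay 4277 bp from the start site. The HOXA2 window holds 4. Over the 300 bases of its promoter window, its ratio of observed to expected CG was 0.71, against 0.89 for RASGEF1B, 0.25 for RNF43 and 0 for GPA33. HOXA2 was CpG-rich by this ratio only. The GC content of its window was 46.3%, against 70.3% for RASGEF1B, 54.3% for RNF43 and 56.3% for GPA33. HOXA2, a homeobox gene of the hindbrain, had no peak within 1 kb, and the nearest summit lay 6574 bp away.

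H3K4me2 covered 108.61 Mb, or 3.58% of the 3029.8 Mb spanned by the chromosomes. The narrowest peak was 173 bp, the median 1408 bp and the widest 61074 bp, and the quartiles were 850 and 2255 bp. Fold enrichment ran from 2.03 to 103.58, with a median of 14.4 and quartiles of 8.09 and 24.2. Wide peaks were few but held much of the marked DNA. The 19440 peaks of 2 kb or more were 31.2% of the list and 57.2% of the covered length, and the 129 peaks of 10 kb or more were 0.207% of the list and 1.72% of the length. The shortest gap between neighbouring peaks was 173 bp, the same as the narrowest width. Peak names in the list are numbered up to 79739, and 17235 of these numbers (21.6%) have no row; which peaks they were is not given in the sources used here.

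Width and fold rose together. From the narrowest to the widest decile the median fold went from 5.90 to 29.6, and across the 62388 peaks the rank correlation (Spearman's rho) of width and fold was 0.76. Both values come from the same pileup of reads, and the peaks share the same libraries. The summit, the position of highest signal, lay between 0.25 and 0.75 of the peak's length in 83.5% of peaks. This share was 90.4% for peaks of 1408 to 1694 bp and 69.1% in the widest decile, where a summit more often stood near an edge. By coordinate the summit fell below the peak's midpoint in 50.5% of peaks, so the list as a whole had no lean to one side.

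**Figure D1:**
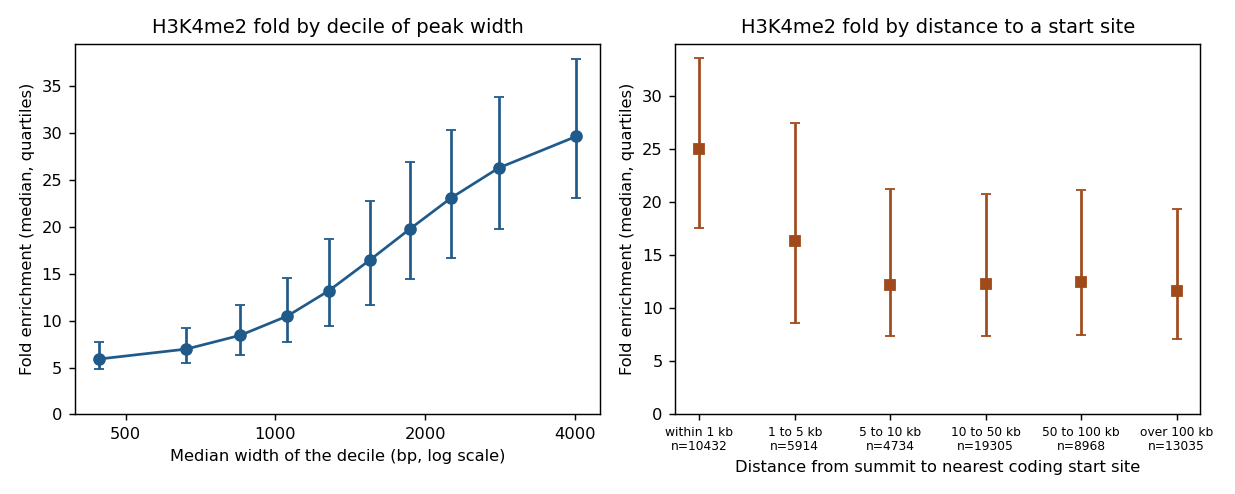
Median fold enrichment of H3K4me2 peaks with quartiles (bars), by decile of width (left, log scale in bp) and by distance from the summit to the nearest protein-coding start site (right, with the number of peaks). Fold climbs from 5.90 to 29.6 over the width deciles, and falls from 25.02 within 1 kb of a start site to about 12 beyond 5 kb.

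The mark was mostly away from gene starts, although peaks at starts were the stronger. A summit lay within 1 kb of a protein-coding start site in 10432 peaks (16.7%), and in 51956 (83.3%) it lay further off. The peaks near starts had a median fold of 25.02 and a median width of 2263 bp, and the distal peaks 12.5 and 1258 bp. The quartile ranges of fold overlapped, from 17.6 to 33.6 near starts and from 7.46 to 21.3 for distal peaks. Beyond 5 kb the fold changed little with distance. The median fold was 12.2 at 5 to 10 kb, 12.3 at 10 to 50 kb, 12.5 at 50 to 100 kb and 11.6 in the 13035 peaks over 100 kb away. Of the distal summits, 51.5% lay inside an annotated gene and 48.5% outside. The share of peaks near a start rose with every decile of fold, from 2.20% in the lowest to 40.5% in the highest. By width it rose from 4.25% in the narrowest decile to 37.8% in the ninth and was 28.7% in the widest. The window of 1 kb takes up a smaller part of a wider peak, and the share of peaks covering a start was not compared.

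The 10 peaks of highest fold had folds of 84.8 to 103.58 and widths of 1503 to 5267 bp, and 6 of them had the summit within 1 kb of a start site. The highest stood at chr19:2578162-2579820, inside a gene, with the nearest coding start 65800 bp away. The next covered an end of CA11, a carbonic anhydrase-related protein with no listed start (chr19:48644760-48646811, fold 98.9). It was followed by the start of ARHGAP31, a GTPase-activating protein for Cdc42 and Rac1 (chr3:119293158-119296442, fold 94.9), and GSTM4, a glutathione S-transferase (chr1:109655022-109660288, fold 93.8). BIRC3, an inhibitor of apoptosis and NF-kappaB target, had a fold of 92.8 at chr11:102315928-102318360, with the summit 201 bp upstream of its start. The sixth was distal, 6868 bp from the start of EOMES at chr3:27714831-27716333 (fold 92.0). RASGEF1B and the glycosyltransferase genes GCNT1 (fold 87.8) and GALNT12 (fold 85.8) followed; the GCNT1 peak covered the start, with its summit 1227 bp away. The tenth lay 76479 bp from IFNE at chr9:21557701-21560789 (fold 84.8). EOMES, a T-box factor of early development, had at its own start a weaker peak of fold 12.9. Among the 100 peaks of highest fold, all at 65.3 or more, 37 had the summit within 1 kb of a coding start.

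The 10 widest peaks were from 22124 to 61074 bp, with folds from 9.07 to 41.5, and none of them was among the 10 of highest fold. The widest, at chr17:48562930-48624003 with a fold of 17.7, ran over at least one end of each of 7 genes, HOXB3 to HOXB9, for which no start is listed. A further peak of 23851 bp (fold 26.0) began just beyond it at chr17:48624190-48648040. The second covered the start of RUNX2, a transcription factor of bone, for 41276 bp (chr6:45413951-45455226, fold 27.6). The third, 36080 bp at chr7:130892398-130928477, covered no coding start, and the nearest, that of KLF14, was 178263 bp away. The RNF43 peak was the fourth (chr17:58386475-58420338). Others of the 10 covered the starts of NR2F2, a nuclear receptor gene (27871 bp, fold 39.0), and PERP, a p53 target and desmosome component (23901 bp, fold 41.5). Those in SLC2A1, the glucose transporter GLUT1 (26956 bp), and ACTN4, an actin cross-linking protein (24197 bp), did not reach a coding start. In the SLC2A1 and PERP peaks the summit stood at 0.95 and 0.99 of the peak's length from its lower coordinate. In the RUNX2 peak it stood at 0.066. Among the 100 widest peaks, of 10843 bp or more, 17 had a summit within 1 kb of a coding start, and 37 of the 100 with highest fold. The window does not grow with the peak, so a wide peak can cover a start with its summit outside the window.

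Peaks around start sites were examined with strand, using 1 start per gene for the 15812 coding genes with an entry in the promoter table. This was the most upstream start listed for the gene. A peak covered the start site itself in 9526 (60.2%). Coverage fell to 32.9% at 1 kb upstream and 52.0% at 1 kb downstream, and reached 5.98% at 5 kb upstream and 5.92% at 5 kb downstream. The peak at a covered start reached a median of 1016 bp upstream (quartiles 665 and 1504) and 1473 bp downstream (quartiles 1105 and 1886). It reached further downstream than upstream at 69.1% of covered starts, so relative to the start used the marked domain was shifted into the gene. Of the 15812 genes, 2683 had 2 listed starts and 1353 had 3 or more. The other starts of these genes lie downstream of the one used. Peaks at them were not set apart, so how far these add to the shift, or to the downstream summits described next, was not tested.

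The nearest summit did not share this lean. Of the 9960 starts with a summit within 2 kb, it was downstream in 52.8%, at a median of 684 bp, and upstream in 4693, at a median of -369 bp. In bins of 100 bp, 3 local maxima held over 5% of starts each. They were centred 200 bp upstream (8.99% of starts), 100 bp downstream (6.29%) and 700 bp downstream (5.45%), with lower values at the start itself (3.49%) and 300 bp downstream (1.85%). Summits between 100 and 600 bp upstream made up 28.0%, and those between 400 and 1200 bp downstream 31.3%. The low at the start was deeper for strong peaks. Most of these starts were put in 3 equal groups of 3275 by fold, which do not hold all of the 9960. In the highest group 2.05% had the summit in the bin at the start, against 5.74% of the lowest group. Promoter composition went with the profile as well. At CpG-rich starts the bins at 200 bp upstream and 700 bp downstream held 9.42% and 5.92%. At CpG-poor starts they held 6.68% and 2.27%, the bin at 100 bp downstream held 12.5%, and 62.6% of summits were downstream in all. Both classes were drawn from the same list, and no test of the difference was made.

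**Figure D2:**
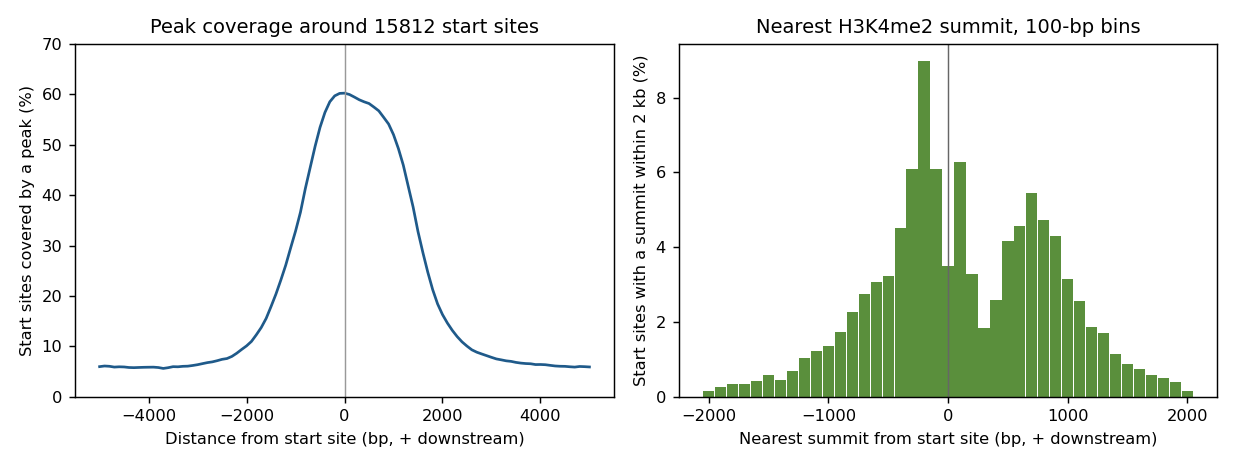
H3K4me2 around protein-coding start sites, with distance in bp along the direction of transcription. Left, the share of 15812 start sites whose surroundings are covered by a peak, highest at 60.2% at the start and wider on the downstream side. Right, the position of the nearest summit for the 9960 starts with one within 2 kb, in 100-bp bins, with maxima at 200 bp upstream, 100 bp downstream and 700 bp downstream.

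Divergent promoters carried the mark more often than other starts. In 807 pairs of genes the starts pointed away from each other with at most 1 kb between them, a median of 181 bp, and 754 of these pairs (93.4%) had a peak. Counted by start, 93.3% of the 1602 starts in such pairs had one, against 60.8% of the 14210 starts outside them. The peaks at divergent starts were wider, with a median of 3013 bp against 2456 bp, while the median folds were 25.9 and 26.5. The nearest summit was downstream at 45.7% of divergent starts and 54.0% of the others. Width and side are not compared evenly, since a peak can span both starts of a pair, and downstream of one is upstream of the other. The CpG content of these starts was not taken into account. Genes with several listed starts were also marked more often: 62.1% with 1 start, 74.7% with 2 and 80.3% with 3 or more. The last comparison is not even, since each further start gives a gene another window in which a peak can fall.

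CpG content separated marked from unmarked promoters, but not strong from weak peaks. The ratio of observed to expected CG was taken over the 300 bases from 250 before to 50 after the start. Its median was 0.85 at marked starts and 0.34 at unmarked ones. Of the 10362 starts with a ratio over 0.6, 83.4% had a peak, against 48.5% of the 1457 between 0.4 and 0.6 and 19.5% of the 3993 below 0.4. By decile the share rose from 13.3% in the lowest to 89.8% in the highest, with most of the rise between the third decile (33.4%) and the fifth (78.3%). Where a peak was present, its median fold was 26.6 at CpG-rich, 26.7 at middle and 23.1 at CpG-poor starts. Across the 10131 marked starts the rank correlation of the ratio with fold was 0.038, and with width 0.15. These starts share libraries and base composition, and GC content was higher at marked starts too, with a median of 65.7% against 55.0%. The effect of GC content on the recovery of reads was not tested.

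**Figure D3:**
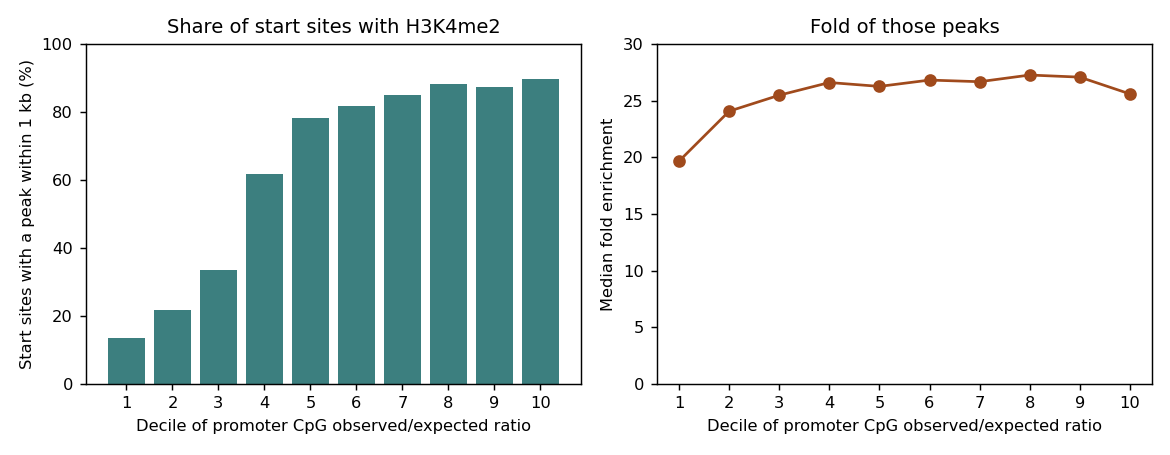
Protein-coding start sites in 10 groups of equal size by the ratio of observed to expected CG in their promoter window. Left, the share with an H3K4me2 peak within 1 kb, which rises from 13.3% to 89.8%. Right, the median fold where a peak is present, 19.7 in the lowest decile and between 24.1 and 27.3 in the others.

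Short motifs were counted on both strands of the same 300 bases. A match is a run of letters and not a known site, and matches of different motifs may overlap, as GGGCGG and ATGGCGG end in the same letters. TATAAA, the core of the TATA box, was in 9.75% of the 15812 windows and 11.6% of all 34789 promoters in the table. Starts with it had a peak in 36.5%, and starts without it in 67.1%. GGGCGG, the core of the Sp1 site, was in 58.3% of windows (44.9% of all promoters), and 78.9% of starts with it were marked, against 43.4% without. CCGGAAG, the ETS factor core, was in 14.1% (10.2% of all), with 89.1% marked against 60.0%. ATGGCGG, found in YY1 sites, was in 7.58% (5.56% of all), with 89.2% marked against 62.0%. GCGCATG, found in NRF1 sites, was in 5.88% (4.41% of all), with 84.4% marked against 62.8%. CCAAT was in 36.4% (34.6% of all) and made almost no difference, at 65.2% and 63.4%. TGACTCA, the AP-1 site, was in 3.62% (4.93% of all), and 52.5% of starts with it were marked, against 64.5% without. The motifs are spread unevenly over the CpG classes, so some values were also taken within them. Among CpG-rich starts, TATAAA went with 75.4% marked against 83.9%, and CCGGAAG with 92.7% against 81.2%. Among CpG-poor starts, TATAAA went with 12.1% against 21.5%. The difference for GGGCGG was smaller within each class than over all starts. It was 84.3% against 80.5% at CpG-rich starts, where 8007 of the 9222 windows with it lay. At middle starts it was 53.3% against 44.5%, and at CpG-poor starts 30.2% against 17.7%. TGACTCA turned round in each class, with 27.8% marked against 18.8% at CpG-poor, 63.3% against 47.9% at middle and 88.0% against 83.4% at CpG-rich starts. GCGCATG turned round in the middle class alone, with 32.7% of 55 starts marked against 49.1%. CCAAT went with 86.8% against 81.6% at CpG-rich and 17.3% against 20.7% at CpG-poor starts. The median fold at marked starts differed little between windows with and without a motif, from 24.2 against 26.5 for TATAAA to 26.7 against 25.6 for GGGCGG.

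The label was checked on genes that mark colorectal epithelium. Of 12 such markers, 9 had a peak at the start, or at either gene end for the 7 of the 12 with no listed start. This was 75%, beside 63.8% of all coding genes, so the count alone says little about the label. Among them were CDH1 (E-cadherin, fold 27.7, 11108 bp) and CDX2, the intestinal homeobox factor (fold 22.9, 16051 bp). KRT8 (fold 26.4) and KRT18 (fold 26.3, 12705 bp), which encode keratins of simple epithelia, were others. CDH17, GPA33 and LGALS4 had none within 1 kb. Markers of other cell types were marked at 0 of 6 genes for endothelium, 0 of 7 for muscle, 2 of 8 for fibroblasts (COL1A1 and PDGFRA) and 3 of 7 each for blood (CD14, CD3E and SPI1), hepatocytes (APOA1, SERPINA1 and TF) and neurons (GAD1, SNAP25 and TUBB3). COL1A1, CD3E, SPI1, APOA1 and SNAP25 have no listed start. Their peaks stood at either gene end and may lie away from the promoter. Some of the peaks at listed starts were strong, such as GAD1 with a fold of 43.4 and TF with 48.1. Whether these genes are transcribed was not measured here.

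Among genes of the colorectal epithelium, 19 of 26 had a peak within 1 kb of the start (73.1%, beside 63.8% of all coding genes), and 24 within 5 kb (beside 70.6%). The 12 colorectal markers above are all among these 26, so the counts are not separate checks. The median fold of the 19 was 26.3, and their median width of 5168 bp stood above the 2534 bp of all marked genes. CLDN4, a tight junction claudin, had a fold of 46.5 and a peak of 7550 bp. HNF4A, a nuclear receptor of gut and liver, had a fold of 44.6, and GRHL2, a regulator of epithelial identity, one of 42.7. GATA6, an endodermal transcription factor, lay in a peak of 21684 bp, with the nearest summit 4631 bp from its start. FABP1, the fatty acid-binding protein of enterocytes, had none within 1 kb, with the nearest summit at 3808 bp. DLD-1 cells carry a mutated APC gene and active Wnt signalling, which was not measured here. Of 18 Wnt targets, 17 had a peak (94.4%, beside 63.8% of all coding genes), and 10 of the 18 were scored at either gene end. Subunits of the methyltransferase complexes (94.7%) and the proteasome (100%) had shares as high. Whether Wnt signalling bears on the mark was not tested. The folds of the marked Wnt targets ran from 5.75 at NOTUM to 51.4 at CCND1, the cyclin D1 gene. SOX9, a progenitor factor of the crypt, had 50.9 over 9519 bp, and AXIN2, a feedback inhibitor of the pathway, 17.8 over 9736 bp. DKK1, a secreted Wnt antagonist, was the 1 without, with the nearest summit 4662 bp away. At peaks of at least the median fold alone, 14 of the 18 were marked, beside 56.3% of all coding genes.

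The genes for the enzymes of the mark itself nearly all carried it. Of 19 subunits of the methyltransferase complexes 18 had a peak (94.7%, beside 63.8% of all coding genes, which is also the background for the counts that follow), SETD1B being the exception with a summit 1976 bp away. The catalytic subunits KMT2A and KMT2B had folds of 43.7 and 42.2. DPY30, a core subunit with no listed start, had a peak of fold 49.7 at one end and another of 31.9 at the other. WDR82, which ties SETD1A and SETD1B to RNA polymerase II, lay in a peak of 9123 bp. All 9 demethylases and partners were marked, led by KDM1A (34.0), its corepressor RCOR1 (31.2) and KDM1B (29.3). Proteasome subunits, which every cell needs, were marked at 31 of 31, with folds from 10.1 at PSMB6 to 49.3 at PSMA1 and widths up to 6907 bp at PSMB3. Immediate early genes, which respond to growth signals within minutes, were marked at 16 of 16, with a median width of 3800 bp. FOSL2, an AP-1 subunit, had a fold of 45.7 over 8140 bp, and JUNB 18.03 over 6663 bp. The zinc finger growth response gene EGR1 had 42.5. The nearest summit lay at a median of 1165 bp from the start of these genes and of 626 bp for the proteasome.

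**Figure D4:**
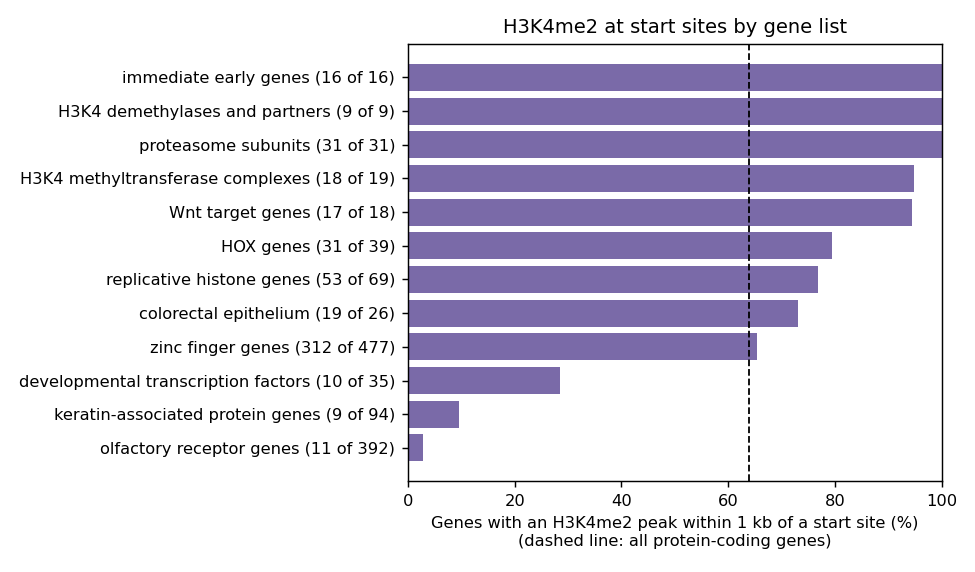
Share of the genes of each list with an H3K4me2 peak within 1 kb of a start site (bars, with counts), beside the share of all protein-coding genes (dashed line, 63.8%). Proteasome subunits, immediate early genes and demethylases reach 100%, and olfactory receptors 2.81%.

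Transcription factors of other lineages were marked less often than coding genes at large, at 10 of 35 (28.6%). LHX9 (40.2), PAX9 (35.0) and NEUROG2 (30.6) had the highest folds, and TBX3 the widest peak at 4917 bp. With a window of 5 kb the count was 17 of 35 (48.6%, beside 70.6% of all coding genes). HOX genes, which set position along the body axis, were marked at 31 of 39 (79.5%, beside 63.8% of all coding genes), with some peaks shared between neighbours. The 7 genes HOXB3 to HOXB9 each had an end in the widest peak of the list, and HOXC4, HOXC5 and HOXC6 shared a peak of 2538 bp with a fold of 81.4 at chr12:54016149-54018686. The 4 HOX clusters were marked in different ways. The widest peak within 1 kb of any listed start was 14878 bp for HOXA3, HOXA6 and HOXA7 and 12354 bp for HOXA13. A gene need not lie in its peak as a whole, and for HOXA4 and HOXA5 the width was 11394 bp. The marked HOXD starts had peaks from 759 bp at HOXD3 to 3757 bp at HOXD11, the highest fold being 43.2 at HOXD8. HOXA2, HOXB1, HOXB2, HOXC9, HOXC13, HOXD4, HOXD10 and HOXD12 had none. Replicative histone genes, which lie close together and include near-identical copies, had a peak at 53 of 69 (76.8%). Only 35 different peaks stood at these 53 genes, and H2AC4, H3C2 and H4C2 shared one of 9020 bp. Their median fold was 14.8, against 26.7 for all marked genes, and 35 (50.7%) were marked at the median fold or above, beside 56.3% of all coding genes. H4C16 had the highest fold, 28.4.

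Numbered zinc finger genes (ZNF) were near the background, with 312 of 477 marked (65.4%). Their folds ran from 3.49 to 62.3 at ZNF219, with a median of 20.1, and the widest peak, at ZNF608, had 10756 bp. Olfactory receptor genes, which are used mainly in the nose, were marked at 11 of 392 (2.81%), with a median fold of 12.2 and OR51E2 the strongest at 21.6. Keratin-associated protein genes of hair were marked at 9 of 94 (9.57%), with a median fold of 6.01 and width of 525 bp. KRTAP3-1 (21.6 over 2303 bp) and KRTAP2-3 (19.1) stood above the others. Some long stretches filled mostly by genes of one family had no peak. The 9.09 Mb of chromosome 11 from 48191941 to 57277735 held no peak and 65 coding genes, 57 of them olfactory receptors. On chromosome 19, 4.26 Mb from 19777530 to 24033268 held no peak and 36 genes, 34 of them ZNF genes, including ZNF100 with its nearest summit 1991306 bp away. On chromosome 21, 1.63 Mb from 29565107 held 36 genes, 33 of them KRTAP genes. Stretches with other genes lacked peaks too. On chromosome 8, 1.01 Mb from 7222049 held 43 genes, among them DEFB4A, and on chromosome 5, 1.93 Mb from 69528627 held 16, among them SMN1. Whether reads could be placed along the whole of each stretch was not tested. How reads that align to several near-identical places were counted is not given in the sources used here, so values at such copies are uncertain.

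Outside protein-coding genes the mark was most frequent at tRNA genes, which RNA polymerase III transcribes. Within 1 kb of either end of the gene, 273 of 443 tRNA genes (61.6%) had a peak, beside 31.8% of 18177 lncRNA genes, 20.5% of miRNA genes, 17.7% of snoRNA genes and 7.46% of pseudogenes. Many lie in clusters, and the 273 genes stood at 205 different peaks, with a median width of 1998 bp and fold of 18.4. Among the 277 tRNA genes more than 10 kb from a coding start, 52.7% had a peak, beside 18.1% of lncRNA genes at that distance. On the chromosomes with over 20 tRNA genes the count ran from 3 of 22 on chromosome 7 and 30 of 98 on chromosome 1 to 101 of 155 on chromosome 6, 19 of 26 on chromosome 16 and 31 of 33 on chromosome 17.

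Peaks were spread unevenly along the chromosomes. Chromosome 17 had the most per Mb (33.0), followed by 19 (32.0), and X the fewest (10.4), with 20.6 over all. Over the 23 chromosomes peak density went with the density of coding genes (Spearman's rho 0.82, Pearson's r 0.78), as a description across chromosomes of the same libraries. X stood below chromosomes of like gene density: chromosomes 10 and 3, with 5.49 and 5.38 coding genes per Mb against 5.43 for X, had 22.9 and 20.4 peaks per Mb. The median fold of start-proximal peaks was 20.3 on X (336 peaks) and 25.3 on the autosomes, and that of distal peaks 11.9 and 12.5. The list gives no copy number for the chromosomes, so its effect on these values was not tested.

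**Figure D5:**
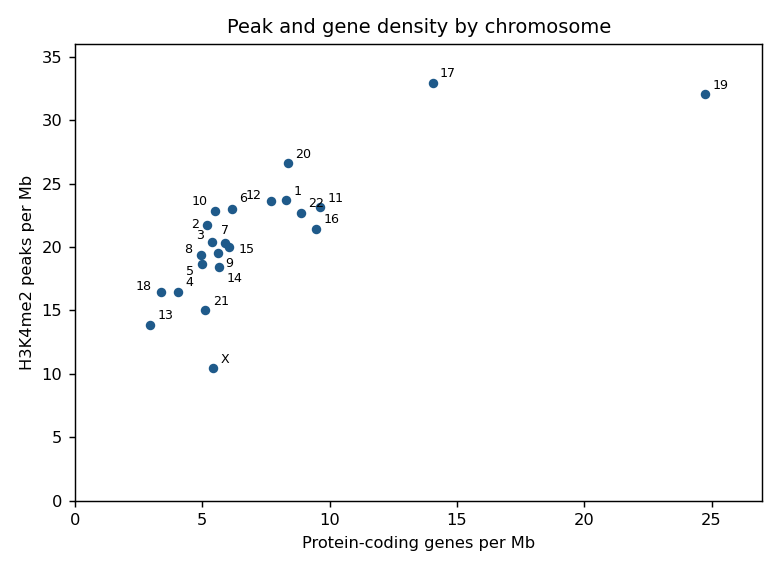
H3K4me2 peaks per Mb against protein-coding genes per Mb for the 23 chromosomes (each point labelled). Density of peaks is highest on 17 and 19, and X, at 10.4 peaks per Mb, is below chromosomes with as many genes per Mb.

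In windows of 1 Mb the median was 19 peaks, and 411 of 3020 windows held none. The densest, chromosome 15 from 40000001 to 41000000, held 86 peaks and 30 coding starts, among them that of SPINT1. Dense windows were not always rich in genes. The window of AXIN2 on chromosome 17 (65000001 to 66000000) held 74 peaks with 4 coding genes, and that of ZFP36L1 and ACTN1 on chromosome 14 (68000001 to 69000000) held 69 with 2. Of 471 windows without a coding start, 204 held at least 1 peak, and the fullest, on chromosome 21 from 35000001, held 37.

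Joining neighbours at most 10 kb apart gave 37618 groups, of which 5641 had 3 or more peaks. These held 22856 peaks (36.6%), with a median span of 16.7 kb, and 24422 peaks stood alone. The share follows the gap chosen, at 19.4% with 5 kb and 58.5% with 20 kb, and was 19.2% among peaks of at least the median fold. In 3463 (61.4%) of the groups of 3 or more, no summit lay within 1 kb of a coding start. As shares of peaks, not of groups, 19.1% of lone peaks and 11.6% of the peaks in groups of over 10 were start-proximal. The median width was 1338 bp for lone peaks and 1882 bp in groups of over 10, and the median fold 13.4 and 16.0. The group with the most peaks, 23 over 90.5 kb (chr22:36349870-36440343), lay at MYH9, the heavy chain of non-muscle myosin, with a median fold of 8.95. The next was the HOXA cluster, with 21 peaks covering 88.7 of 101 kb (chr7:27110566-27211804). The group at SMAD3, a signal transducer of TGF-beta, had 19 over 105 kb (chr15:67023650-67128243). The fifth, 18 peaks at chr1:214404271-214525881, held no coding start.

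The other lists of the series were set beside the mark by an overlap of at least 1 bp. Names in the MTBP list begin with WT or deltaC, the labels of full-length FLAG-tagged MTBP and of another FLAG-tagged form. The names were not separated, so an overlap need not be with a peak of full-length MTBP. Of the H3K4me2 peaks, 27182 (43.6%) overlapped an MTBP peak, or 19.9% with a minimum coverage of 50% of the peak. In the 27182 overlapping peaks the H3K4me2 summit lay a median of 181 bp from the MTBP summit. The distance was longer at start-proximal peaks (320 bp, 6523 peaks) than at distal ones (137 bp, 20659 peaks). In the whole list start-proximal peaks were also wider, with medians of 2263 and 1258 bp. Distances at like width were not compared. Overlap with MTBP went with width in both classes alike. At distal peaks it was 9.57% under 1 kb, 42.1% at 1 to 2 kb, 79.1% at 2 to 5 kb and 95.01% above, and at start-proximal peaks 10.5%, 45.5%, 78.0% and 95.1%. A wider peak also has more bases in which an overlap can fall. The widest peak, over HOXB3 to HOXB9, held 10 MTBP summits, the most of any. On X the overlap was lower within each class, at 27.1% against 63.7% on the autosomes for start-proximal peaks and 12.6% against 40.5% for distal ones. It was 32.3% against 79.9% for peaks of 2 to 5 kb. The effect of chromosome copy number on this difference was not tested. Overlap with initiation zones, which are far wider than the peaks, was 17.6% in all and ran from 14.9% in the narrowest to 24.6% in the widest width decile. By clustering it rose from 8.26% of lone peaks to 14.2% in pairs, 25.01% in groups of 3 to 5, 44.5% in groups of 6 to 10 and 51.5% in groups of over 10. The last share rests on 800 peaks in 61 groups. Peaks of one group can lie in the same zone, so they are not separate observations. All of the overlaps are counts in single lists, with no replicate error behind them.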

How the data were processed

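The reads were processed on hg38 with Bowtie2, MACS2, HOMER and Trim Galore, per the submitters' processing notes. Versions and settings were not given in the sources used here. Each peak's score, fold enrichment (a ratio), −log10 p-value and −log10 q-value are values the authors deposited. In the other deposited lists, the score of MTBP peaks and zones was not used, only positions.

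Positions were converted to 1-based coordinates. Genes, start sites and 300-base promoters came from RefSeq tables of GRCh38.p14, the assembly of hg38. The promoter table is not complete and lists starts of 15812 of the 19974 coding genes; for the others either gene end was used. A gene was marked where any part of a peak lay within 1 kb. Profiles around start sites used the most upstream listed start of each gene. Peaks at most 10 kb apart were joined. Named genes were the 10 highest folds, the 10 widest peaks, the 5 largest groups and, per list, the 3 highest folds, 3 widest and up to 4 without a peak; other genes were named after their values were seen, and a few genes that the rule names are not reported here. Members and lists were chosen with earlier results of these data known. Where a gene had several peaks, its highest fold and its greatest width are given, which may come from different peaks. The interval code was tested on simulated data. Python 3.11.15, pandas 2.3.3 and numpy 2.4.6 were used.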

Additional observations from a re-analysis of the deposited data

How the results depend on the processing

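No paired analysis was possible because the list holds 1 value per peak and none per library, and for the same reason no replicate could be left out. No 2 peaks share an interval, so the alternative of merging such peaks left the list as it was. Shares were compared with the exact 95% binomial interval of the reported value, which covers counting of genes or peaks only. The share of coding genes with a peak was 62.4% with a window of 500 bp, 70.6% with 5 kb, 53.3% with the summit in the window, 56.3% with peaks of at least the median fold only, and 65.8% over genes with a listed start, an alternative chosen after seeing the data. With either gene end it was 64.3%, inside the interval. The share of peaks with the summit near a start was 10.1% within 500 bp, 26.2% within 5 kb, 22.9% for all annotated genes, 17.9% by peak centre and 28.0% among peaks of at least the median fold. The share of summits downstream was 49.8% within 1 kb and 67.7% by peak centre, so the near balance of the 2 sides holds for summits and not for centres; with 5 kb and with the stronger peaks it stayed inside the interval. The share in groups of 3 or more was 19.4% with gaps of 5 kb, 58.5% with 20 kb and 19.2% among the stronger peaks. The share with MTBP was 19.9% where 50% of the peak had to be covered and 69.2% among the stronger peaks, and the share in zones 17.2% and 21.0%. Most gene list counts stayed within 1.5 times. Those that did not were developmental transcription factors (17 within 5 kb), replicative histones (35 at the median fold or above), olfactory receptors (24 within 5 kb, 4 at the median fold or above) and keratin-associated proteins (18 and 2). The cause of these shifts was not tested beyond the change in window or in the number of peaks. Library depth is unknown, so how far it limits the weakest and narrowest peaks could not be assessed.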
